A study of Mus musculus with 4 samples.

Results

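NF-kappa-B is a family of inducible transcription factors that are held in the cytoplasm by inhibitor proteins and released by inflammatory signals. The 10 genes described here were chosen by symbol from the deposited expression table, in which 11603 genes are listed, and all 10 were found. They are 4 Rel family factors (Nfkb1, Nfkb2, Rela and Relb), 5 inhibitors or inhibitor relatives (Nfkbia, Nfkbib, Nfkbiz, Tnfaip3 and Bcl3) and 1 target gene (Icam1). Their RNA was measured in muscle stem cells, the resident precursors of skeletal muscle, from 2 samples labelled conditional Hairless knockout (cKO) and 2 labelled control (Ctrl). Hairless (Hr) encodes a nuclear corepressor, and the series title connects it with the upkeep of heterochromatin and with histone demethylation.

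All mice were C57BL/6 males of 4 to 5 months. Per the labels, the cells came from hindlimb muscle and were sorted as VCAM1 positive and as negative for CD31, CD45 and Sca1. The labels do not give the Cre driver of the knockout, the allele of the controls, or whether the 2 samples of each group are different mice. P-values here therefore measure sample-to-sample spread, part or all of which may be technical. In bulk RNA, fewer cells of a type and less RNA per cell cannot be told apart.

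In the resting state, the I-kappa-B proteins encoded by Nfkbia and Nfkbib bind dimers of Rel factors and mask their nuclear localisation. A signal from a receptor activates the I-kappa-B kinase complex, the inhibitor is phosphorylated and degraded, and the dimer enters the nucleus. There it induces Nfkbia and Tnfaip3 among other genes, and their products end the response, which makes their transcripts a common readout of recent pathway activity. Nfkbiz and Bcl3 encode nuclear relatives of the I-kappa-B proteins that act on Rel dimers bound to DNA and can activate as well as repress genes. In muscle, NF-kappa-B is best known for its part in wasting and in holding back myoblast differentiation.

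The promoter letters below are shown because Nfkbia was the member with the largest difference between cKO and Ctrl, and because its feedback loop runs through NF-kappa-B motifs in its own promoter. They are the 250 bases upstream of the RefSeq start of Nfkbia (GRCm38.p6, minus strand, chr12:55492648-55492897), with a match to the kappa-B consensus in capitals. The match lies from -29 to -20 relative to the start and reads GGGAATTTCC on the opposite strand.
Nfkbia upstream: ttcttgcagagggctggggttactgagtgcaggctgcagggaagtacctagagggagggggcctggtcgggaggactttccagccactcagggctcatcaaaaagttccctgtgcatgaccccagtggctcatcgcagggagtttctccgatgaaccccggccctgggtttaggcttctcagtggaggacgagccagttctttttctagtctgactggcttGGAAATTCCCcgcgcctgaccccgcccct

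Of the 7 members with a RefSeq promoter, 3 had a match to the kappa-B consensus within 250 bases upstream of at least 1 start, on either strand. Over all genes with a promoter, 4.45% had a match. The other members with a consensus match were Nfkb2 and Tnfaip3, and short stretches around their matches are printed here because these genes, unlike Nfkbia, had ratios of cKO to Ctrl means close to 1. The stretches lie at chr19:46304689-46304718 and chr19:46304707-46304736 (plus strand) for Nfkb2 and at chr10:19015516-19015545 and chr10:19015411-19015440 (minus strand) for Tnfaip3, with the matched letters in capitals. They belong to 1 of 3 RefSeq starts of Nfkb2 and 1 of 2 of Tnfaip3. Each of the other Nfkb2 starts had 1 match, from -236 to -227 and from -225 to -216, and the other Tnfaip3 start had 0.
Nfkb2 distal: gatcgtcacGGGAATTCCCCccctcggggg
Nfkb2 proximal: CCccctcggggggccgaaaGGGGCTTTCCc
Tnfaip3 distal: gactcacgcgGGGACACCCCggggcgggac
Tnfaip3 proximal: gtgactggaatttccatcGGAAATCCCCct

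In the Nfkb2 distal stretch the consensus matched on both strands at overlapping positions. The pair of Nfkb2 stretches share 12 bases. No consensus match was found in the windows of Bcl3, Nfkbib, Icam1 and Rela. The Nfkbib window, chr7:28766645-28766894 on the minus strand, lies within the listed span of the gene, which reaches chr7:28767512. It is therefore not upstream of the outermost listed exon of Nfkbib. A match describes letters and not a bound site, and its absence says only that these letters are not in this window.

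Reads were plentiful for every member. Between 21757211 and 34101213 reads per library fell on the listed genes, and the member with the fewest, Tnfaip3, had 1889 to 2660. Nfkbia had 24513 to 46197. The deposited values are RPKM, that is, reads scaled by exon length and by a library size chosen by the authors. Hr itself had 7.15 and 7.90 RPKM in cKO, against 9.28 and 8.94 RPKM in Ctrl, with a limma adjusted p of 0.431. The transcript was thus still present in the libraries labelled cKO, and values summed over exons cannot show a deleted part. Libraries are called cKO and Ctrl by their labels throughout. The labels do not spell out the column prefix Fl, which was read as cKO because the other prefix, Ct, names the controls.

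Differences were tested with limma on log2(RPKM + 0.5) over the whole table, with Benjamini-Hochberg adjustment and a threshold of 0.05. With 2 libraries per group this test called 1 of 11603 genes, or 0.00862%, and 0 of the 10 members. At an unadjusted p under 0.05, limma counted 2 members, Nfkbia and Nfkbib, where 18% of all genes reached that level. limma-voom on the reads recovered from the RPKM also called 0 members. In the authors' deposited table, 0 of the 10 members had a q-value under 0.05, against 7.84% of all genes. No member passed the threshold in these 3 comparisons, and what follows describes sizes, spreads and intervals.

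The level of the members covered a wide range. Averaged over the 4 libraries, Nfkbia had 1083 RPKM, a level above that of 99.5% of the listed genes, while Tnfaip3 had 14.5 RPKM, above 68.8% of them. The order by mean RPKM was Nfkbia, Rela, Bcl3, Icam1, Nfkbib, Nfkb2, Relb, Nfkbiz, Nfkb1 and Tnfaip3. Nfkbia stood above Rela, Rela above Bcl3, Relb above Nfkbiz, and Nfkb1 above Tnfaip3 without overlap between any libraries. The neighbours between Bcl3 and Relb had overlapping ranges, and Nfkbiz and Nfkb1 changed places in 2 of the 4 libraries.

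**Figure D1:**
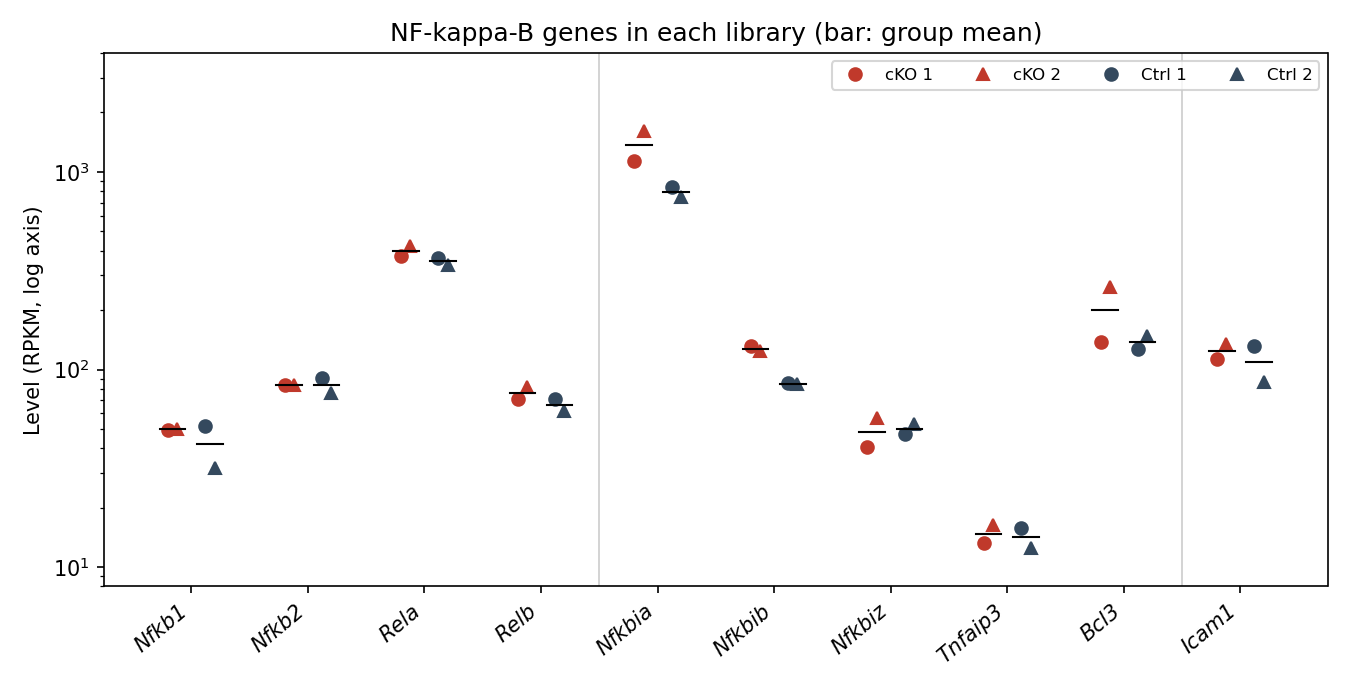
RPKM of the 10 members on a log axis, with cKO libraries in red and Ctrl libraries in dark blue, circles for replicate 1, triangles for replicate 2 and bars for group means. Nfkbia and Nfkbib are the members whose cKO points stand clearly above both Ctrl points, and Bcl3 is spread widely within cKO.

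The DNA-binding factors showed small differences between the groups. Rela encodes p65, the main transactivating subunit, and was the most abundant factor. It had 378 and 420 RPKM in cKO, against 368 and 337 RPKM in Ctrl. Both cKO values were above both Ctrl values, but the nearest pair differed only 1.03-fold. The log2 fold change was 0.18 (standard error 0.15), and limma gave an adjusted p of 0.574, with a 95% interval for the fold difference from 0.873 to 1.46. Rela made up 64.9% and 66.2% of the summed RPKM of the 4 factors in cKO, against 63.3% and 66.5% in Ctrl.

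Nfkb1 encodes p105, which is processed to p50, the usual partner of p65. It had 49.6 and 50.3 RPKM in cKO, against 51.9 and 31.8 RPKM in Ctrl. The cKO libraries were nearly equal and lay within the range of Ctrl, where Ctrl 2 was the low library. The log2 fold change of 0.29 had a standard error of 0.24 and turned to -0.054 without Ctrl 2.

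The factors of the non-canonical branch overlapped between the groups. Nfkb2 encodes p100, which is processed to p52 and in its unprocessed form holds RelB in the cytoplasm. It had 83.6 and 83.3 RPKM in cKO, against 90.4 and 76.3 RPKM in Ctrl. The groups overlapped and their means, 83.4 ± 0.191 and 83.3 ± 9.95 RPKM (SD, n = 2 each), were nearly the same, with a 95% interval for the fold difference from 0.782 to 1.29. Relb had 70.9 and 81.4 RPKM in cKO, against 71.2 and 61.8 RPKM in Ctrl. Here cKO 1 lay just under Ctrl 1, and the log2 fold change was 0.19 (standard error 0.15).

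Nfkbia and Nfkbib, the genes of the classical cytoplasmic inhibitors, showed the clearest separation of the groups. Nfkbia encodes I-kappa-B alpha, the rapidly resynthesised inhibitor of the feedback loop. It had 1135 and 1613 RPKM in cKO, against 839.7 and 744.7 RPKM in Ctrl. Both cKO libraries stood above both Ctrl libraries, with the nearest pair 1.35-fold apart, and cKO 2 was the highest. The means were 1374 ± 338 RPKM in cKO and 792 ± 67.2 RPKM in Ctrl (SD, n = 2 each), a 1.73-fold difference. The log2 fold change of 0.77 had a standard error of 0.22, an unadjusted 95% interval from 0.22 to 1.33, a limma adjusted p of 0.196 and a q-value of 0.129 in the authors' deposited table. Of all genes, 3.46% had a ratio of means at least as high. Nfkbia took 34.5% and 38.8% of the reads of the 10 members in cKO, against 28.1% and 28.7% in Ctrl.

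Nfkbib encodes I-kappa-B beta, an inhibitor that is degraded more slowly and is not known as a strong early NF-kappa-B target. It had 131 and 124 RPKM in cKO, against 85.5 and 84.5 RPKM in Ctrl. The groups were separate, the libraries within each group were almost equal, and the nearest pair was 1.45-fold apart. The means were 128 ± 4.98 RPKM in cKO and 85.0 ± 0.739 RPKM in Ctrl (SD, n = 2 each). The log2 fold change of 0.59 had a standard error of 0.13, an unadjusted 95% interval from 0.26 to 0.91, a limma adjusted p of 0.168 and a q-value of 0.0580 in the authors' deposited table. This was the smallest standard error and the smallest p among the members. The ratio of means was 1.504, and 7.55% of all genes had one at least as high. Of the 2169 exon bases of Nfkbib, 314 overlap Ccer2 and 42 overlap Sirt2 on the opposite strand in the GENCODE M21 annotation of the same build, and reads of overlapping partners cannot be told apart unless strand was used, which no source here states.

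The nuclear relatives and the A20 gene did not share this separation. Bcl3 binds p50 and p52 dimers in the nucleus. It had 138 and 261 RPKM in cKO, against 127 and 148 RPKM in Ctrl. The cKO mean of 200 ± 87.5 RPKM (SD, n = 2) rested on cKO 2 alone, since cKO 1 lay between the Ctrl libraries. The log2 fold change of 0.47 (standard error 0.31) was 0.0082 without cKO 2 and 0.93 without cKO 1.

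Nfkbiz encodes I-kappa-B zeta, an inducible nuclear cofactor of secondary response genes. It had 40.5 and 56.8 RPKM in cKO, against 47.2 and 53.1 RPKM in Ctrl. The cKO libraries enclosed the Ctrl libraries, and the log2 fold change was -0.062 (standard error 0.20). Tnfaip3 encodes A20, a ubiquitin-editing enzyme that shuts down signalling upstream of the I-kappa-B kinase. It had 13.3 and 16.3 RPKM in cKO, against 15.9 and 12.5 RPKM in Ctrl. The groups overlapped, with a log2 fold change of 0.062 (standard error 0.19) and a 95% interval for the fold difference from 0.753 to 1.45. The log2 fold change of Nfkbia lay outside the intervals of Tnfaip3 and Nfkbiz, and equally outside those of Nfkb2, Rela and Relb. The interval of Nfkbia itself, from 0.22 to 1.33, overlapped all of these. Whether Nfkbia differed more than Tnfaip3 or Nfkbiz was not tested with limma.

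Icam1 encodes an adhesion molecule for leukocytes and is a standard NF-kappa-B target. It had 114 and 135 RPKM in cKO, against 131 and 86.6 RPKM in Ctrl. The groups overlapped, Ctrl 2 being the lowest library, and the log2 fold change of 0.21 had a standard error of 0.23 and turned to -0.085 without Ctrl 2. Of the 2540 exon bases of Icam1, 491 overlap an unnamed gene model on the opposite strand.

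**Figure D2:**
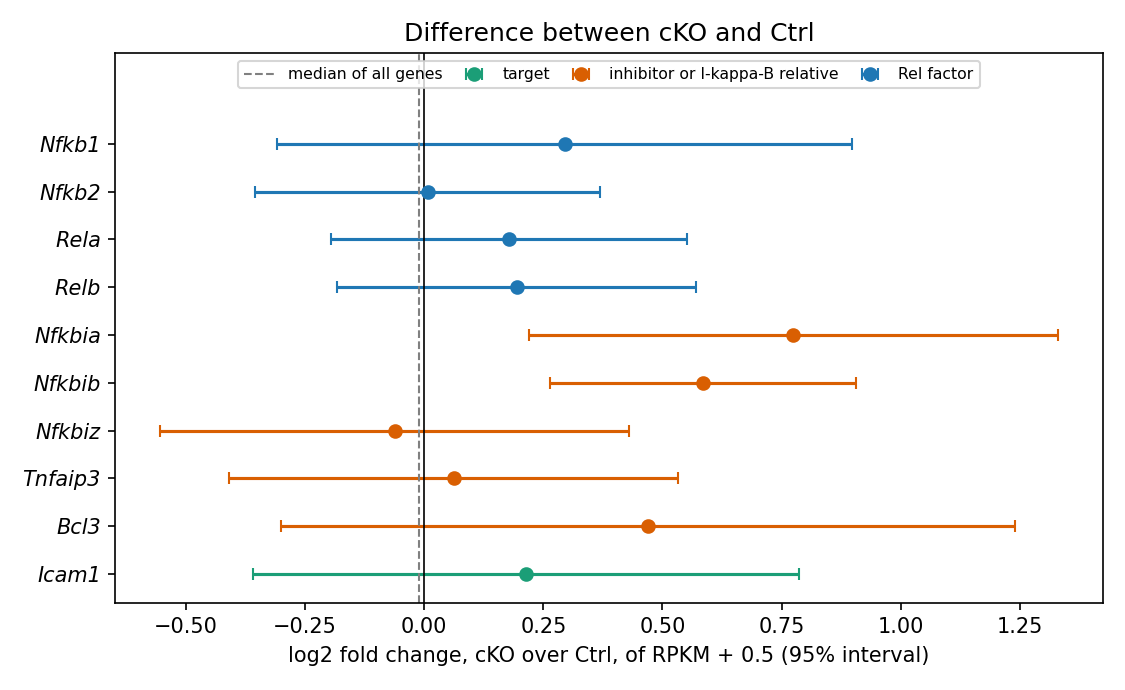
Log2 fold change of cKO over Ctrl for each member from limma, with unadjusted 95% intervals as bars and the median of all genes as a dashed line. The intervals of Nfkbia and Nfkbib lie above 0, and those of the other 8 members include 0.

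Counted over the members, both cKO values were above both Ctrl values in 3 of 10, namely Rela, Nfkbia and Nfkbib, and below them in 0 of 10. Of all genes, 25% were separated upward and 26.2% downward, 51.2% in all, so the count of separated members is near the background. The mean was higher in cKO for 9 of 10 members, against 48.7% of all genes. The median log2 fold change was 0.20 over the members, 0.19 over the 4 factors and 0.47 over the 5 inhibitors and relatives, against -0.012 over all genes. These are descriptions of a list chosen with results of these data known, and they depend on scaling. With the total of the reads listed in place of the authors' library sizes, the median over all genes was -0.20 and that of the members -0.032, and 4 of 10 members had a higher mean in cKO. Set against the median of all genes, the members stood 0.22 above it on the authors' scale and 0.17 above it on the scale of reads listed. On the scale of reads listed, both cKO libraries were above both Ctrl libraries for Nfkbia and Nfkbib and below them for Nfkb2, and Rela overlapped.

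A ratio of genes within a library does not depend on how libraries are scaled. The Nfkbia to Rela ratio of RPKM was 3.004 and 3.84 in cKO, against 2.28 and 2.21 in Ctrl, so the transcript of the main inhibitor was higher relative to that of its main partner in both cKO libraries. The Nfkbib to Rela ratio was 0.348 and 0.296 in cKO, against 0.233 and 0.2505 in Ctrl, again without overlap. For both ratios the two-sided exact permutation p was 0.333, the smallest that 2 against 2 libraries can give. The ratios of Nfkbiz, Tnfaip3 and Bcl3 to Rela overlapped between the groups. Nfkb2 went the other way relative to Rela, with 0.221 and 0.198 in cKO, against 0.246 and 0.226 in Ctrl, at the same p of 0.333. The Nfkbia to Nfkbib ratio was 8.63 and 13.0 in cKO, against 9.82 and 8.81 in Ctrl, and overlapped. These 10 ratios were computed as 1 family, and none could pass a threshold of 0.05 in this design.

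**Figure D3:**
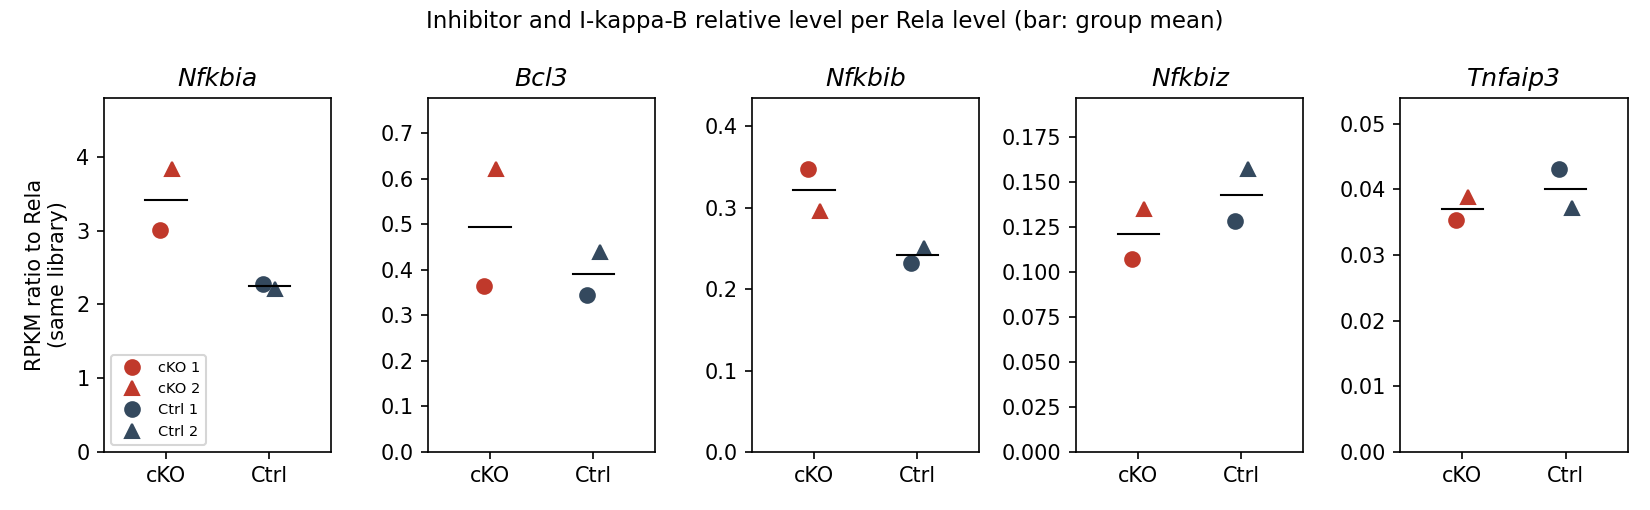
Ratio of the RPKM of 5 inhibitors or relatives to that of Rela in the same library, cKO left and Ctrl right, with bars for group means and each axis starting at 0. The groups do not overlap for Nfkbia and Nfkbib and overlap for Bcl3, Nfkbiz and Tnfaip3.

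Summed by role, the 5 inhibitors and relatives had 1457 and 2072 RPKM in cKO, against 1115 and 1043 RPKM in Ctrl, while the 4 factors had 582 and 635 RPKM in cKO, against 581 and 507 RPKM in Ctrl. The inhibitor sum per factor sum was 2.51 and 3.26 in cKO, against 1.92 and 2.06 in Ctrl. Nfkbia makes up most of the inhibitor sum, so these ratios mainly repeat its own values.

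Within the groups, 8 of 10 members were higher in cKO 2 than in cKO 1, against 47.7% of 6517 genes with a mean of at least 5 RPKM. Likewise 8 of 10 were higher in Ctrl 1 than in Ctrl 2, against 57.4% of those genes. The widest spread within cKO was in Bcl3, 1.90-fold between the libraries, and the widest within Ctrl was in Nfkb1, 1.63-fold. Single libraries therefore moved several directions. Without Ctrl 2, 6 of 10 members had a log2 fold change above 0, and without cKO 1 all 10 did. The log2 fold change of Nfkbib stayed between 0.55 and 0.63 when any 1 library was left out, and that of Nfkbia between 0.52 and 1.03.

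**Figure D4:**
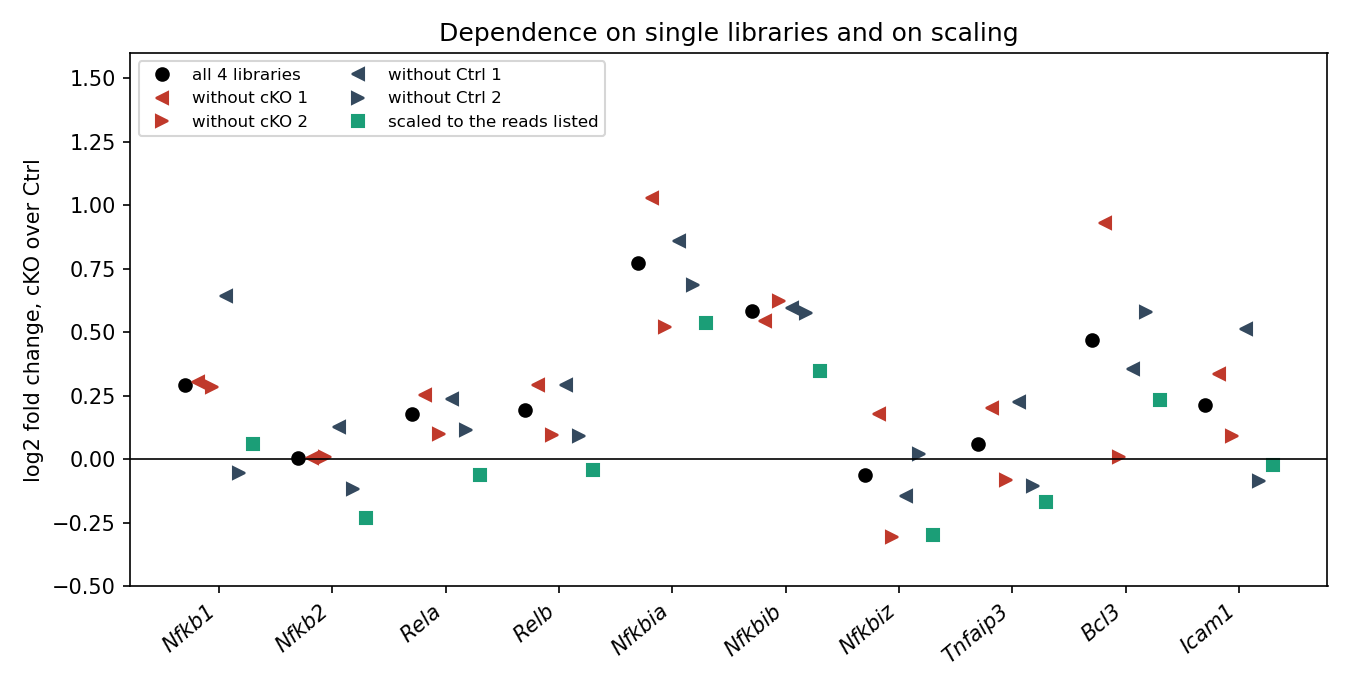
Log2 fold change of cKO over Ctrl for each member with all 4 libraries (black), with 1 library left out (red for a cKO and dark blue for a Ctrl library) and with libraries scaled to the reads listed (green). Nfkbia, Nfkbib and Bcl3 stay above 0 in all 6 settings drawn, Bcl3 reaching 0.0082 without cKO 2, and the other 7 members fall on both sides of 0.

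Genes around the members were read from 5 lists of pathway roles, with 106 of 120 genes measured. limma called 0 of the 106 over all genes. At an unadjusted p under 0.05 it counted 16 higher in cKO and 2 lower, against 10.3% and 7.69% of all genes. In the authors' deposited table, 7 of the 106 were higher in cKO with a q-value under 0.05 and 1 was lower, against 3.59% and 4.26% of all genes. limma-voom was run as well, and it called 0 of them. Whether the groups of a pathway gene overlap was read on the authors' scale only. A narrow separation may not hold on the scale of reads listed.

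Receptors and ligands came first in the pathway. Of 25 listed genes 17 were measured, with a median log2 fold change of 0.078. Tnfrsf12a encodes Fn14, the receptor of the cytokine TWEAK, and had the highest level among the receptors, with 3925 and 3606 RPKM in cKO, against 2570 and 2041 RPKM in Ctrl. Its groups did not overlap, and its q-value in the authors' deposited table was 0.0249. Tlr6, a Toll-like receptor that pairs with Tlr2, had 5.08 and 5.19 RPKM in cKO, against 2.33 and 0.990 RPKM in Ctrl, with a q-value of 0.000199 in the authors' deposited table. The TNF receptor gene Tnfrsf1a had 317 and 301 RPKM in cKO, against 254 and 194 RPKM in Ctrl. It was separated but had a q-value of 0.130 in the authors' deposited table. Il1rl1, the receptor of interleukin 33, was the gene on the lower side, at 0.140 and 0.0265 RPKM in cKO, against 0.363 and 0.174 RPKM in Ctrl, near the bottom of the measured range, with a q-value of 0.0375 in the authors' deposited table.

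Kinases and adaptors, which carry the signal from receptors to the I-kappa-B kinase, were all measured. Of the 30 genes, 13 had a higher and 17 a lower mean in cKO, with a median log2 fold change of -0.069. Myd88, the adaptor shared by Toll-like and interleukin 1 receptors, had 120 and 180 RPKM in cKO, against 84.6 and 82.2 RPKM in Ctrl. Irak4, the kinase recruited by Myd88, had 2.68 and 4.41 RPKM in cKO, against 1.36 and 1.11 RPKM in Ctrl. Both genes were higher in each cKO library than in either Ctrl library, with q-values of 0.00226 and 0.00117 in the authors' deposited table. Rnf31 encodes the catalytic subunit of the linear ubiquitin ligase, and had 6.97 and 9.41 RPKM in cKO, against 4.97 and 5.12 RPKM in Ctrl, with a q-value of 0.0449 in the authors' deposited table. Bcl10, an adaptor of the CARD signalling complex, had 91.3 and 88.7 RPKM in cKO, against 72.7 and 61.0 RPKM in Ctrl. These 4 genes are those the naming rule gives, and they do not stand for the list, whose median was near that of all genes.

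The other Rel and I-kappa-B genes, 10 of 10 measured, had a median log2 fold change of 0.13 and 0 genes under 0.05 in the authors' deposited table. Nfkbie, which encodes I-kappa-B epsilon, another cytoplasmic inhibitor, had 48.3 and 65.6 RPKM in cKO, against 46.0 and 39.0 RPKM in Ctrl. On the authors' scale its groups did not overlap, although cKO 1 and Ctrl 1 were close. Its log2 fold change of 0.41 had a standard error of 0.19. Nfkbil1, a nuclear protein related in sequence to the I-kappa-B family, had 7.39 and 10.4 RPKM in cKO, against 6.17 and 5.79 RPKM in Ctrl. Pias1, a SUMO ligase that can block DNA binding of p65, had 31.0 and 39.95 RPKM in cKO, against 25.8 and 27.8 RPKM in Ctrl. Rel, the c-Rel factor best known from lymphocytes, was low, with 3.94 and 4.14 RPKM in cKO, against 5.19 and 3.97 RPKM in Ctrl, and overlapped.

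The other feedback inhibitors, 18 of 18 measured, had a median log2 fold change of 0.056, with 0 genes under 0.05 in the authors' deposited table. Socs1, a suppressor of cytokine signalling, had 108.1 and 131 RPKM in cKO, against 107.5 and 87.9 RPKM in Ctrl. Tnip1, Tax1bp1 and Rnf11 encode partners of A20. Tnip1 had 31.3 and 34.6 RPKM in cKO, against 42.7 and 29.8 RPKM in Ctrl. Tax1bp1 had 83.3 and 77.1 RPKM in cKO, against 66.2 and 58.5 RPKM in Ctrl, and Rnf11 had 104 and 93.4 RPKM in cKO, against 105 and 82.5 RPKM in Ctrl. Of these 4 genes Socs1 and Tax1bp1 were separated, Socs1 by less than 1 RPKM, and Tnip1 and Rnf11 overlapped.

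Target genes, 31 of 37 measured, had a median log2 fold change of 0.22, the highest of the 5 lists. The log2 fold change was above 0 for 21 of them and below 0 for 10. Gadd45b, a stress-induced antiapoptotic gene, had 885 and 1162 RPKM in cKO, against 572 and 516 RPKM in Ctrl, with a q-value of 0.00587 in the authors' deposited table. Junb, an AP-1 factor that also responds to many other stimuli, had 1756 and 3026 RPKM in cKO, against 1177 and 1439 RPKM in Ctrl, with a q-value of 0.0144 in the authors' deposited table. The chemokine gene Cxcl1 had 1975 and 2148 RPKM in cKO, against 1502 and 1044 RPKM in Ctrl, and Ier3, an early response gene, had 416 and 887 RPKM in cKO, against 324 and 337 RPKM in Ctrl. All 4 were higher in each cKO library than in either Ctrl library, and Cxcl1 and Ier3 had q-values of 0.443 and 0.190 in the authors' deposited table. These 4 genes are those the naming rule gives, and they do not stand for the list. Of the 31 measured targets, 9 were separated upward and 3 downward, against 25% and 26.2% of all genes.

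**Figure D5:**
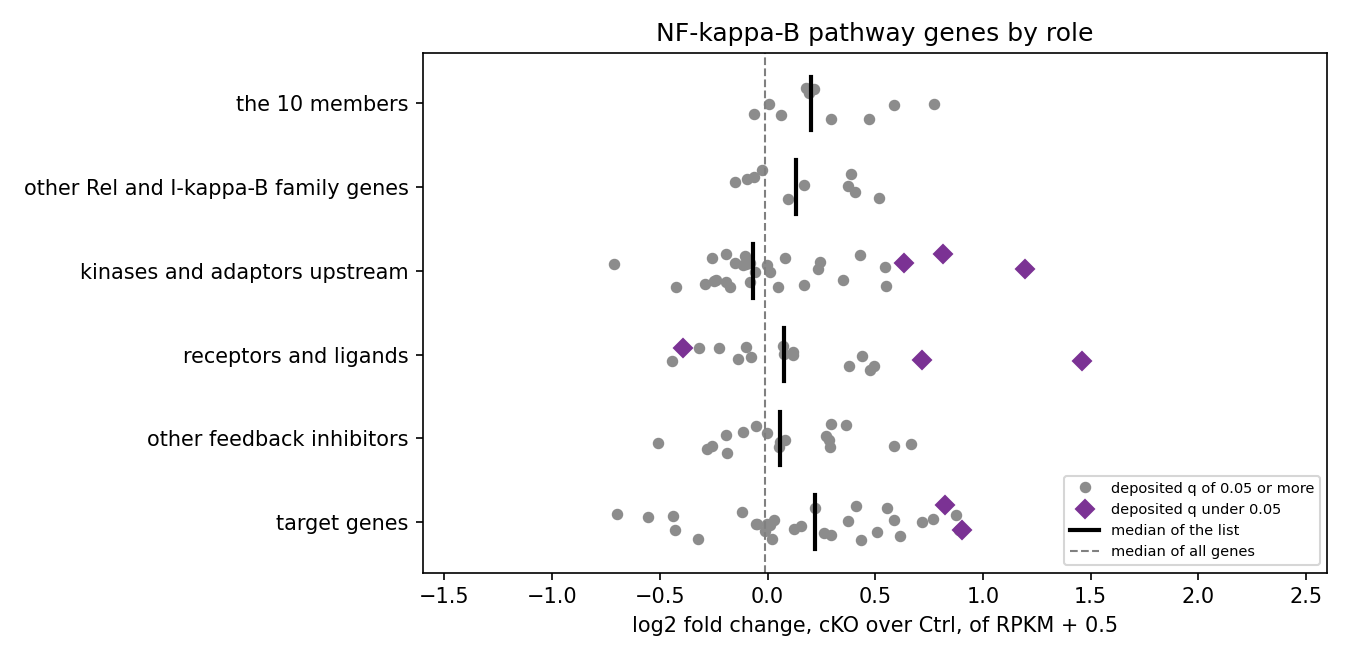
Log2 fold change of cKO over Ctrl for the 10 members and for the measured genes of 5 pathway lists, 1 point per gene. Purple diamonds are genes with a q-value under 0.05 in the authors' deposited table, black bars are list medians, from -0.069 for kinases and adaptors to 0.22 for target genes, and the dashed line is the median of all genes.

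Genes that respond to tissue dissociation, and those of other cell types, were read beside these values. All 14 measured dissociation response genes, such as Fos, Jun, Egr1 and Atf3, had a higher mean in cKO, with a summed level of 11939 and 16221 RPKM in cKO, against 8683 and 9979 RPKM in Ctrl. On the authors' scale, both cKO sums were above both Ctrl sums and cKO 2 was the highest, as for Nfkbia. Gene by gene, both cKO values were above both Ctrl values on that scale in 9 of the 14, against 25% of all genes. Nfkbia was separated on the scale of reads listed as well. The dissociation genes were not read on that scale, and their separation may not hold there. The authors' library sizes were 75.7% of the reads listed for cKO 1 and 92.4% for Ctrl 2. Egr1, which gave the most to the sums, overlapped, with 2097 and 3384 RPKM in cKO, against 1515 and 2289 RPKM in Ctrl. The part of the dissociation response in the Nfkbia values was not tested.

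Markers of the sorted cell type differed in both directions. The 10 muscle stem cell markers, all measured, summed to 6523 and 6563 RPKM in cKO, against 4561 and 3737 RPKM in Ctrl. The log2 fold change was above 0 for 6 of them and below 0 for 4. Without Sdc4, which gave the most, the sums were 3492 and 3303 RPKM in cKO, against 2440 and 2155 RPKM in Ctrl. limma called 0 of the 10. At an unadjusted p under 0.05 it counted 4 higher and 1 lower, against 10.3% and 7.69% of all genes. Myod1, Sdc4 and Cd82 were higher in the authors' deposited table, with q-values of 0.00107, 0.00280 and 0.0220. Itga7 was lower, with a q-value of 0.00849. Of all genes, 3.59% were higher and 4.26% lower with a deposited q-value under 0.05. Pax7, the defining factor of these cells, had 9.03 and 13.1 RPKM in cKO, against 8.23 and 12.9 RPKM in Ctrl. The part of these markers in the Nfkbia and Nfkbib values was not tested.

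Markers of other cells were read in the same way, and several sums came mostly from 1 gene. The 9 measured immune markers summed to 128 and 60.8 RPKM in cKO, against 46.4 and 44.2 RPKM in Ctrl, and without Cd74 to 28.8 and 44.1 RPKM in cKO, against 36.3 and 29.7 RPKM in Ctrl. Ptprc, which encodes the CD45 used in the sort, was at or below 0.0399 RPKM in every library. The 5 fibro-adipogenic markers summed to 465 and 304 RPKM in cKO, against 281 and 237 RPKM in Ctrl, and without Dpt to 142 and 180 RPKM in cKO, against 149.6 and 121 RPKM in Ctrl, with 3 means higher and 2 lower in cKO. Ly6a, which encodes the Sca1 of the sort, was listed at 77.4 and 80.7 RPKM in cKO, against 47.9 and 49.5 RPKM in Ctrl.

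The 6 pericyte and smooth muscle markers summed to 166 and 243 RPKM in cKO, against 344 and 497 RPKM in Ctrl. Without Acta2 their sums were 17.9 and 37.6 RPKM in cKO, against 23.3 and 22.9 RPKM in Ctrl, and 4 of the 6 means were higher in cKO. The 8 endothelial markers summed to 47.3 and 72.4 RPKM in cKO, against 67.2 and 87.2 RPKM in Ctrl, with 7 of 8 means lower in cKO. The 6 myofibre markers summed to 50.3 and 48.7 RPKM in cKO, against 163 and 686 RPKM in Ctrl, and all 6 means were lower in cKO. Without Acta1 their sums were 13.8 and 16.8 RPKM in cKO, against 19.6 and 231 RPKM in Ctrl. The higher Ctrl level of the markers other than Acta1 thus came mainly from Ctrl 2. The 3 Schwann cell markers summed to 7.79 and 18.6 RPKM in cKO, against 16.1 and 18.1 RPKM in Ctrl. The part of these cell types in the values of the members was not tested.

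The genes whose pattern over the 4 libraries was most like that of Nfkbia were Gpx4, Znhit3 and Ikzf4, with root mean square distances of 0.0083, 0.031 and 0.033 between centred log2(RPKM + 0.5) profiles, among 6516 genes with a mean of at least 5 RPKM. Gpx4, a glutathione peroxidase, had 240 and 340 RPKM in cKO, against 179 and 159 RPKM in Ctrl. Over 4 libraries such likeness is a description only.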

How the data were processed

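Total RNA of sorted muscle stem cells was reverse transcribed from 10 ng with a full-length low-input kit, per the labels' protocols. Per the submitters' processing notes, the tools were edgeR, STAR, Trim Galore and featureCounts (Subread), on mm10 (GRCm38); no version, setting or strand use is given in the sources used here. The authors deposited 1 table, with RPKM per library and a q-value of their own comparison, whose model no source here states. The unit of the library columns was read from the values. RPKM times exon length was a whole multiple of 1 step in 100% of values (tolerance 0.01 reads). The steps also gave reads and the library sizes the authors divided by. These sizes were 75.7% and 75.5% of the reads listed in cKO, against 85.9% and 92.4% in Ctrl. Compared with the scale of reads listed, the authors' scale thus raises cKO values more than Ctrl values.

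limma 3.58.1 in R 4.3.3 was run with trended variance priors on log2(RPKM + 0.5) for the 11603 genes, genotype being the only term, without a further filter. This scale understates changes of low genes. N-fold values are ratios of mean RPKM. Counting error was 0.465% to 2.30% per member and library; the intervals printed come from the spread between libraries. Alternatives were other pseudocounts, a minimum of 1 RPKM, other scalings, limma-voom, the replicate number as a block and each library left out.

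The members and lists were chosen with earlier results of these data known. Of each pathway list the text names up to 4 genes: those past limma, then by the smallest deposited q-value under 0.05, then by mean RPKM. Genes were matched by symbol or through RefSeq synonyms. Promoters are from RefSeq (GRCm38.p6) and overlaps from GENCODE M21.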

Additional observations from a re-analysis of the deposited data

How the results depend on the processing

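The count of genes called by limma over the whole table was 1, and 0 to 1 when 1 library was left out, 11 with limma-voom (3 higher and 8 lower in cKO) and 1004 with the replicate number as a block (591 higher and 413 lower). With the block, 1 member and 8 pathway genes were called, against 0 and 0 without it. The member was Nfkbib, at an unchanged log2 fold change of 0.59 and an adjusted p of 0.0369, over a range from 0.0369 to 0.663 in its 11 alternatives. The labels give no shared mouse, batch or day for a number. Same-numbered deviations from the group means correlated at 0.42 over 6517 genes, but with 2 pairs the pairing is a hint from the data and not from the design. With libraries scaled to the reads listed, the median of all genes was -0.20, with -0.23 for Nfkb2, -0.060 for Rela, -0.042 for Relb, -0.17 for Tnfaip3, -0.022 for Icam1 and -0.032 for the member median. Leaving out 1 library gave ranges of 0.057 to 0.33 for the member median, -0.054 to 0.64 for Nfkb1, -0.11 to 0.13 for Nfkb2, -0.30 to 0.18 for Nfkbiz, -0.10 to 0.23 for Tnfaip3 and -0.085 to 0.51 for Icam1. Nfkbia, Nfkbib and Bcl3 kept their direction in all 11 alternatives. Where 1 library is left alone in a group, it is assumed to vary like the other group. The causes of these shifts were not tested.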
